A study of Arabidopsis thaliana with 102 samples.

Results

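The comparison described here sets seedlings labelled bzip60-2 against seedlings labelled bzip28-2, both after treatment with tunicamycin (Tm) and both collected at the end of that treatment (0 h). It was chosen by its labels, as the 3 bzip60-2 and the 3 bzip28-2 RNA-seq libraries of that treatment and time, which makes 6 of the 102 samples of the series. Each library came from a pool of 12 whole Arabidopsis thaliana seedlings in the Col-0 background, 5 days old when they were moved into liquid medium with 500 ng/mL Tm for 6 h. bzip60-2 and bzip28-2 are insertion lines labelled as knockouts of the transcription factor genes bZIP60 and bZIP28, and each carries an intact copy of the other factor's gene. For comparison, the same 2 mutants given the solvent DMSO for the same time (3 libraries each), Col-0 under Tm and DMSO at 0 h (3 libraries each), and both mutants 12 h and 24 h after removal of Tm (3 libraries each at each time) were used. Binding data came from ChIP-seq with an antibody to GFP in whole seedlings given Tm or DMSO, 2 replicates of each. The bZIP28 line carried GFP-bZIP28 under the constitutive 35S promoter in Col-0. The study reports bZIP28 transcripts in this line at levels like those of Col-0, but constitutive with and without Tm. The bZIP60 line carried GFP-bZIP60 under the promoter of bZIP60 itself, in a bzip60 knockout. The levels are FPKM (fragments mapped to a gene, scaled by its exon length and by the mapped fragments of the library), which the authors deposited for 34133 genes.

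Tm blocks the first step of N-glycosylation, so that misfolded proteins build up in the endoplasmic reticulum (ER) and the unfolded protein response (UPR) is switched on. In Arabidopsis the UPR has a pair of arms. In one, bZIP28 is held in the ER membrane, moves to the Golgi under stress and is cut there to release its transcription factor domain. In the other, the ER sensor IRE1 splices the mRNA of bZIP60, which then encodes a nuclear factor. Both factors act on genes for ER chaperones, folding enzymes, ER-associated degradation and vesicle transport, partly through a shared promoter element, ERSE-I. A direct comparison of the mutants under stress asks which genes depend more on one arm than on the other.

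The levels of both mutated genes come first, as a check of the labels. bZIP60 (AT1G42990) had 116, 119 and 95.4 FPKM in bzip60-2 libraries under Tm, against 276, 294 and 333 FPKM in bzip28-2 libraries, and 205, 216 and 208 FPKM in Col-0. The groups did not overlap, and the difference on the log2(FPKM + 1) scale was -1.45 ± 0.12 (SE; limma adjusted p = 0.019). Reads from the bZIP60 gene were thus fewer but not absent in bzip60-2, where they averaged 34.2 ± 3.33 FPKM under DMSO (SD, n = 3). bZIP28 (AT3G10800) had 21.6, 25.02 and 20.8 FPKM in bzip60-2 libraries under Tm, against 24.6, 25.8 and 28.6 FPKM in bzip28-2 libraries. These ranges overlapped, and the difference of -0.22 ± 0.10 (SE) was not called (limma adjusted p = 0.42). Under DMSO, bZIP28 was lower in bzip60-2, at 12.5 ± 0.442 FPKM against 24.7 ± 1.54 FPKM in bzip28-2 (SD, n = 3 each; limma adjusted p = 0.031), and Col-0 had 11.1 ± 1.20 FPKM. At 12 h after removal of Tm, bZIP28 was called higher in bzip60-2 than in bzip28-2, by 1.57 ± 0.07 (SE, limma adjusted p = 0.0037). At 24 h its difference was 0.79 ± 0.09 (SE) and was not called (limma adjusted p = 0.061). A value for a whole gene does not show whether its reads lie before or after an insertion. At 0 h under Tm, the bZIP28 level does not single out the libraries labelled bzip28-2. Under DMSO it sets them apart, but as higher and not lower than the other genotypes. The genotype names used below, and every direction drawn between them, are therefore those of the labels.

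The 6 libraries had 19267 to 19583 genes above 1 FPKM. The 16 photosynthesis genes listed as shoot markers summed to between 32556 and 36510 FPKM in bzip60-2 under Tm and between 35031 and 36748 FPKM in bzip28-2 under Tm. The 7 root markers summed to between 1108 and 1224 FPKM in bzip60-2 and between 845 and 1135 FPKM in bzip28-2. None of these markers was at 0 in any of the 6 libraries, and both sums overlapped between the mutants. In whole seedlings, fewer cells of a type and less RNA per cell cannot be told apart.

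Of 21864 genes tested (FPKM above 1 in at least 1 of the 54 RNA-seq libraries), 117 were called at an adjusted p under 0.05, which is 0.535% of the genes tested. Of these, 39 were higher in bzip60-2 (0.178%) and 78 were lower (0.357%). Without a correction, 2799 genes had p under 0.05. The balance of directions depended on the fit, with 153 higher and 129 lower where a mean of at least 1 FPKM was required, 229 and 230 in a fit of the 12 libraries of both treatments, and 565 and 354 in a fit of all 54. Among the genes lower in bzip60-2 were SEC31A, a COPII coat gene, NAC103, a transcription factor gene, and SAR1A, a GTPase gene. Among the genes higher in bzip60-2 were ERDJ3B, P58IPK, CRT1, CRT2 and PDIL1-3, which encode ER chaperones and folding enzymes. The median difference over all genes tested was -0.01 on the log2(FPKM + 1) scale, which understates the change of genes with low FPKM. The count depended on the fit: with any 1 library left out it was 27 to 43, and 19 genes were called in every one of those 6 fits. All 117 genes kept the sign of their difference when any 1 library was left out. Of the called genes named here, SEC31A, NAC103, NF-YC11, ETC1, AT5G55270, AT2G29260, AT2G25460, ERDJ3B, P58IPK, HEI10, MRD1, AT2G25690, AT2G38630, AT2G38640 and AT1G42980 were called in all 6 of those fits and AT2G29270 in 5. SAR1A, AT3G15980, NF-YC2, AT4G21730, AT3G12840 and AT5G11560 were called in 2 of them, and CRT2, RNS1, UBC12, LHT7, AT1G29060 and AT4G05370 in 1. The other called genes named here were called in none: bZIP60, CRT1, PDIL1-3, PDIL2-3, NAC089, TIN1, AT1G62020, AT1G05520, UTR3, WRKY70, JAZ10, NAC019, ELI3-2, AT5G11410, AT2G39518, UBC11, LTI65, AT4G36648, NdhO, FRUCT5 and AT5G04760.

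Promoter sequences carrying ERSE-I are shown here because both factors are known to act through this element, among others. The genes below also differ in which factors were found at them. ERSE-I is CCAAT, 10 bases of any kind and CACG. Each stretch is from RefSeq (assembly TAIR10.1), lies before the annotated start of the gene, is written 5′ to 3′ on the strand of the gene, and has the fixed bases of the element in capitals. Where the capitals read CGTG and then ATTGG, the element is on the opposite strand. The first 4 stretches belong to genes higher in bzip60-2, and all of them lie inside a 0 h ChIP-seq peak of bZIP28. Those of CRT1 and UTR3 lie inside a 0 h peak of bZIP60 too, and those of P58IPK do not.
P58IPK (chr5:750038-750064, + strand): tccaCGTGggtcataacgATTGGatag
P58IPK (chr5:749978-750004, + strand): cataCGTGtttaattatcATTGGttac
CRT1 (chr1:21092755-21092781, - strand): ctggCGTGtatttaactaATTGGttaa
UTR3 (chr1:4913193-4913219, - strand): taagCCAATgacacagttaCACGtgga
The next belong to genes lower in bzip60-2, and both lie inside a 0 h peak of bZIP60 but of no bZIP28 peak. Stretches of the lower genes AT3G12840, AT5G11560, FRUCT5 and AT5G04760 lie in no 0 h peak annotated to their gene and are not printed.
AT2G25460 (chr2:10835778-10835804, - strand): ccatCCAATtagtaataggCACGtcag
NdhO (chr1:28131119-28131145, - strand): cttaCGTGgcatcttatgATTGGttca
YIP1a and BI1, which were not called, also have a stretch inside a 0 h peak of bZIP60 but of no bZIP28 peak. These are not printed. The last belong to BIP3, which was not called, and lie inside peaks of both factors.
BIP3 (chr1:2931924-2931950, - strand): cttaCGTGtcaagaagtgATTGGagag
BIP3 (chr1:2932002-2932028, - strand): gtcaCGTGtctgcttgtgATTGGgtac

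The largest difference of the comparison was that of SEC31A (AT1G18830, chromosome 1; the study names this locus SEC31B), which encodes an outer coat protein of the COPII vesicles that leave the ER. It had 1.85, 1.79 and 1.06 FPKM in bzip60-2 under Tm, against 285, 357 and 305 FPKM in bzip28-2. The means differed by a factor of 201, and the difference was -6.95 ± 0.16 (SE; limma adjusted p = 0.00031). Col-0 under Tm was in between, at 109 ± 9.88 FPKM (SD, n = 3), and without Tm all 9 libraries of the 3 genotypes were under 1 FPKM. The other SEC31 gene, AT3G63460, listed here as SEC31B, was not called, with 111 ± 14.1 FPKM in bzip60-2 and 91.9 ± 4.07 FPKM in bzip28-2 (SD, n = 3 each).

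NAC103 (AT5G64060, chromosome 5), which encodes a NAC transcription factor of the UPR, showed the same order. It had 10.3, 10.4 and 8.23 FPKM in bzip60-2 under Tm, against 171, 147 and 164 FPKM in bzip28-2. Its difference was -3.93 ± 0.11 (SE; limma adjusted p = 0.00039), and Col-0 had 56.4 ± 5.35 FPKM (SD, n = 3). In bzip60-2, NAC103 had 9.64 ± 1.23 FPKM under Tm and 3.20 ± 0.490 FPKM under DMSO, and SEC31A had 1.57 ± 0.438 FPKM under Tm and 0.244 ± 0.108 FPKM under DMSO (SD, n = 3 each). Both genes were thus higher with Tm in bzip60-2 too (limma adjusted p = 0.000104 for NAC103 and 0.0017 for SEC31A). NAC089 (AT5G22290), which encodes a membrane-bound NAC factor linked to ER stress and cell death, differed less. It had 24.7, 26.1 and 22.8 FPKM in bzip60-2, against 37.0, 40.0 and 38.5 FPKM in bzip28-2 (difference -0.63 ± 0.07, SE; limma adjusted p = 0.038), and was not called with FPKM scaled by their median ratio (limma adjusted p = 0.098). No gene of the 7 stress NAC factors listed had a positive difference.

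SAR1A (AT1G09180) encodes a small GTPase of the kind that starts COPII coat assembly. It had 47.9, 52.5 and 43.5 FPKM in bzip60-2 under Tm, against 290, 187 and 243 FPKM in bzip28-2, a difference of -2.28 ± 0.17 (SE; limma adjusted p = 0.016). All DMSO libraries of the mutants were under 2 FPKM, so that both mutants had SAR1A levels far above those without Tm. The other SAR1 genes listed were not called, for example SAR1C with 101 ± 5.70 FPKM in bzip60-2 and 92.6 ± 7.81 FPKM in bzip28-2 (SD, n = 3 each). YIP1a (AT2G36300), annotated as an integral membrane Yip1 family protein, had 57.5, 70.7 and 53.7 FPKM in bzip60-2, against 156, 121 and 164 FPKM in bzip28-2. The groups did not overlap, but the difference of -1.26 ± 0.16 (SE) missed the threshold (limma adjusted p = 0.052). YIP1a was called in the fit of the 12 libraries (limma adjusted p = 0.0023), in that of all 54 (5.0e-07) and with the filter set on the libraries compared (0.014).

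**Figure D1:**
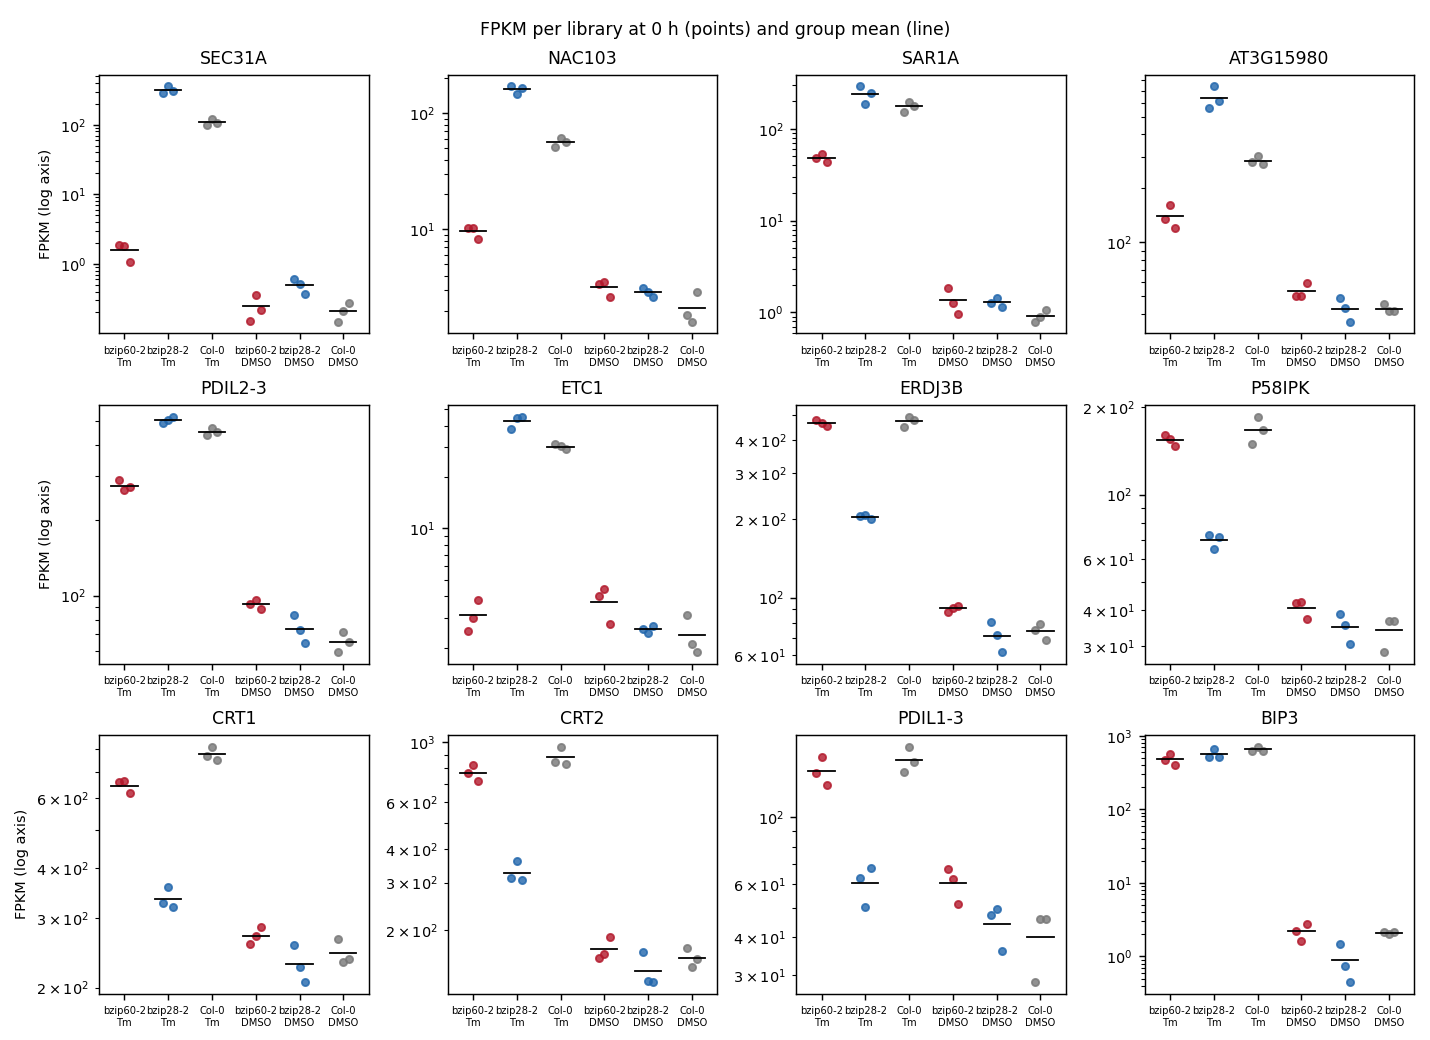
FPKM at 0 h (log axis, a separate range for each gene) of 12 genes in bzip60-2, bzip28-2 and Col-0 under Tm and then under DMSO. Each point is 1 library and each line a group mean of 3 libraries. The first 6 genes were lower in bzip60-2 than in bzip28-2 under Tm, the next 5 were higher, and BIP3 was not called.

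Other genes of vesicle transport were among the calls. These were picked out by their annotation after their values were seen, so no list stands behind them. AT3G15980, annotated as the beta' subunit of the COPI coatomer, had 136, 163 and 121 FPKM in bzip60-2, against 559, 742 and 613 FPKM in bzip28-2 (difference -2.18 ± 0.16, SE; limma adjusted p = 0.014). AT1G62020, annotated as the coatomer alpha subunit, averaged 70.9 ± 9.005 FPKM in bzip60-2 and 132 ± 8.00 FPKM in bzip28-2 (SD, n = 3 each). AT1G05520, annotated as a Sec23/Sec24 transport protein of the COPII coat, averaged 37.4 ± 2.03 FPKM in bzip60-2 and 59.8 ± 3.13 FPKM in bzip28-2. AT1G29060, a SNARE domain protein, averaged 67.0 ± 7.81 FPKM in bzip60-2 and 125 ± 6.26 FPKM in bzip28-2. With FPKM scaled by their median ratio, AT1G62020 (limma adjusted p = 0.095), AT1G05520 (0.080) and AT1G29060 (0.071) were no longer called, against 0.046, 0.031 and 0.036 without scaling. In these 4 genes the Col-0 mean under Tm lay between those of the mutants, for AT1G05520 at 42.0 ± 3.70 FPKM. The calls also held NF-YC2, which encodes a subunit of the CCAAT-binding factor NF-Y, with 20.3 ± 1.57 FPKM in bzip60-2 and 72.4 ± 13.3 FPKM in bzip28-2. NF-YC11, of the same family, had 25.1 ± 1.14 FPKM in bzip60-2 and 57.97 ± 2.79 FPKM in bzip28-2.

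Among protein disulfide isomerases, which form and rearrange disulfide bonds in the ER, calls went in both directions. PDIL2-3 (AT2G32920) had 289, 264 and 273 FPKM in bzip60-2, against 489, 504 and 521 FPKM in bzip28-2 (difference -0.87 ± 0.07, SE; limma adjusted p = 0.019). PDIL1-3 (AT3G54960) had 140, 159 and 128 FPKM in bzip60-2, against 62.6, 50.4 and 68.0 FPKM in bzip28-2 (difference 1.23 ± 0.14, SE; limma adjusted p = 0.041). Col-0 sat close to the higher mutant for each of these genes, at 452 ± 15.8 FPKM for PDIL2-3 and 155 ± 15.3 FPKM for PDIL1-3 (SD, n = 3). The other 13 members of the disulfide list were not called. TIN1 (AT5G64510), a gene named for its induction by tunicamycin, averaged 99.2 ± 5.09 FPKM in bzip60-2 and 146 ± 3.11 FPKM in bzip28-2 (difference -0.56 ± 0.06, SE; limma adjusted p = 0.034), both below Col-0 with 196 ± 13.8 FPKM. Scaled by the median ratio, neither PDIL1-3 (limma adjusted p = 0.058) nor TIN1 (0.095) was called. TIN1 was also not called in the fit of the 12 libraries (limma adjusted p = 0.052) or in that of all 54 (0.22), whereas PDIL1-3 was called in both.

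The ER chaperone genes that were called were all higher in bzip60-2. ERDJ3B (AT3G62600), which encodes a J-domain partner of the ER chaperone BiP, had 481, 465 and 456 FPKM in bzip60-2, against 205, 207 and 201 FPKM in bzip28-2. Its difference of 1.19 ± 0.06 (SE; limma adjusted p = 0.0035) was called in all 6 fits that left out a library, and Col-0 had 475 ± 22.5 FPKM (SD, n = 3). P58IPK (AT5G03160), another J-domain protein of the ER, had 160, 156 and 147 FPKM in bzip60-2, against 72.4, 65.2 and 71.7 FPKM in bzip28-2. The difference was 1.14 ± 0.07 (SE; limma adjusted p = 0.0059), called likewise in all 6 of those fits.

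Calreticulins hold glycoproteins in the ER until they are folded. CRT1 (AT1G56340) had 659, 663 and 617 FPKM in bzip60-2, against 327, 360 and 320 FPKM in bzip28-2 (difference 0.95 ± 0.08, SE; limma adjusted p = 0.021). CRT2 (AT1G09210, calreticulin 1b in the annotation) had 771, 826 and 715 FPKM in bzip60-2, against 311, 360 and 307 FPKM in bzip28-2 (difference 1.24 ± 0.11, SE; limma adjusted p = 0.02). The groups did not overlap for either gene, and Col-0 was above both mutants, at 775 ± 30.9 FPKM for CRT1 and 878 ± 73.6 FPKM for CRT2 (SD, n = 3). These related genes can share reads, so their separate levels are less certain than the direction they have in common. UTR3 (AT1G14360), a UDP-galactose transporter gene that belongs to no list, averaged 162 ± 11.48 FPKM in bzip60-2 and 105 ± 3.08 FPKM in bzip28-2 (SD, n = 3 each; limma adjusted p = 0.042, or 0.069 when scaled).

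The BiP genes, which encode the main Hsp70 chaperone of the ER, were not called. BIP3 (AT1G09080) had 469, 572 and 399 FPKM in bzip60-2 under Tm, against 517, 670 and 521 FPKM in bzip28-2, with a difference of -0.25 ± 0.18 (SE; limma adjusted p = 0.61). Both groups were far above their DMSO means, which were 2.21 ± 0.559 FPKM in bzip60-2 and 0.882 ± 0.518 FPKM in bzip28-2 (SD, n = 3 each). BIP1 and BIP2, near-identical copies whose reads can be exchanged, had means of 1018 and 1137 FPKM in bzip60-2 and of 847 and 900 FPKM in bzip28-2, and neither was called. ERDJ3A (AT3G08970), the other ERDJ3-type gene named here, had 187, 186 and 166 FPKM in bzip60-2, against 155, 160 and 169 FPKM in bzip28-2 (difference 0.16 ± 0.07, SE; limma adjusted p = 0.45). BI1 (AT5G47120), which encodes the cell death suppressor BAX inhibitor 1, averaged 571 ± 51.1 FPKM in bzip60-2 and 768 ± 91.2 FPKM in bzip28-2 (limma adjusted p = 0.29). The root hair genes COW1 (limma adjusted p = 0.95) and LRX1 (limma adjusted p = 0.84) were at under 10 FPKM in each of the 6 libraries and overlapped between the mutants.

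Read by list, the members called were few in each, and are to be read beside the 0.178% of all genes tested that were called higher and the 0.357% called lower. Of 11 genes of the ER Hsp70 system, 2 were called, both higher, and the list's median difference was 0.26 against -0.01 over all genes tested. Of 6 genes of the calnexin-calreticulin cycle, 2 were called, both higher, with a median of 0.58, and all 6 differences were positive. Of 10 genes of ER export, 2 were called, both lower, but the median was 0.03: beside SEC31A and SAR1A, the other 8 lay between -1.26 (YIP1a) and 0.26 (SEC31B, AT3G63460). Among the stress NAC factors 2 of 7 were called, both lower, with a median of -0.39. Of the 7 tested UPR sensors, factors and proteases, bZIP60 alone was called. No gene was called among 13 of ER-associated degradation (median -0.13), 9 of the translocon (0.36) or 11 of N-glycosylation (0.10). Among 6 genes of cell death control TIN1 alone was called (median -0.07), and of 14 cytosolic heat shock genes none was (-0.17). None was called either among 19 genes of detoxification and mitochondrial stress (0.16), 8 of camalexin and indole glucosinolates (0.47), 13 of root hairs (0.17), 12 of the circadian clock (-0.06), 16 shoot markers (0.10) or 7 root markers (0.17).

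Outside the ER, the defence hormone lists leaned towards bzip60-2 without many calls. Of 20 jasmonate genes, 18 had positive differences (median 0.62), and JAZ10, a repressor of jasmonate signalling, was called, with 11.7, 14.2 and 12.8 FPKM in bzip60-2 against 6.74, 5.99 and 6.07 FPKM in bzip28-2 (limma adjusted p = 0.036). Of 23 genes of salicylic acid and immunity, 20 had positive differences (median 0.34), and WRKY70, a transcription factor of salicylic acid signalling, was called, with 11.1, 13.1 and 13.4 FPKM in bzip60-2 against 4.61, 6.16 and 4.79 FPKM in bzip28-2 (limma adjusted p = 0.046). All 13 ethylene genes had positive differences (median 0.52), and none was called. Members of a list share their libraries, so these counts of signs are no test. The medians under DMSO were 0.55 for the jasmonate list, 0.48 for salicylic acid and immunity and 0.28 for ethylene, with no member called, so that positive medians were present without Tm too. Neither JAZ10 nor WRKY70 was called when FPKM were scaled by their median ratio (limma adjusted p = 0.053 for JAZ10 and 0.061 for WRKY70). JAZ10 was not called in the fit of the 12 libraries (limma adjusted p = 0.065) or in that of all 54 (0.066). WRKY70 was not called in the fit of the 12 libraries (limma adjusted p = 0.17) but was called in that of all 54 (0.044).

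**Figure D2:**
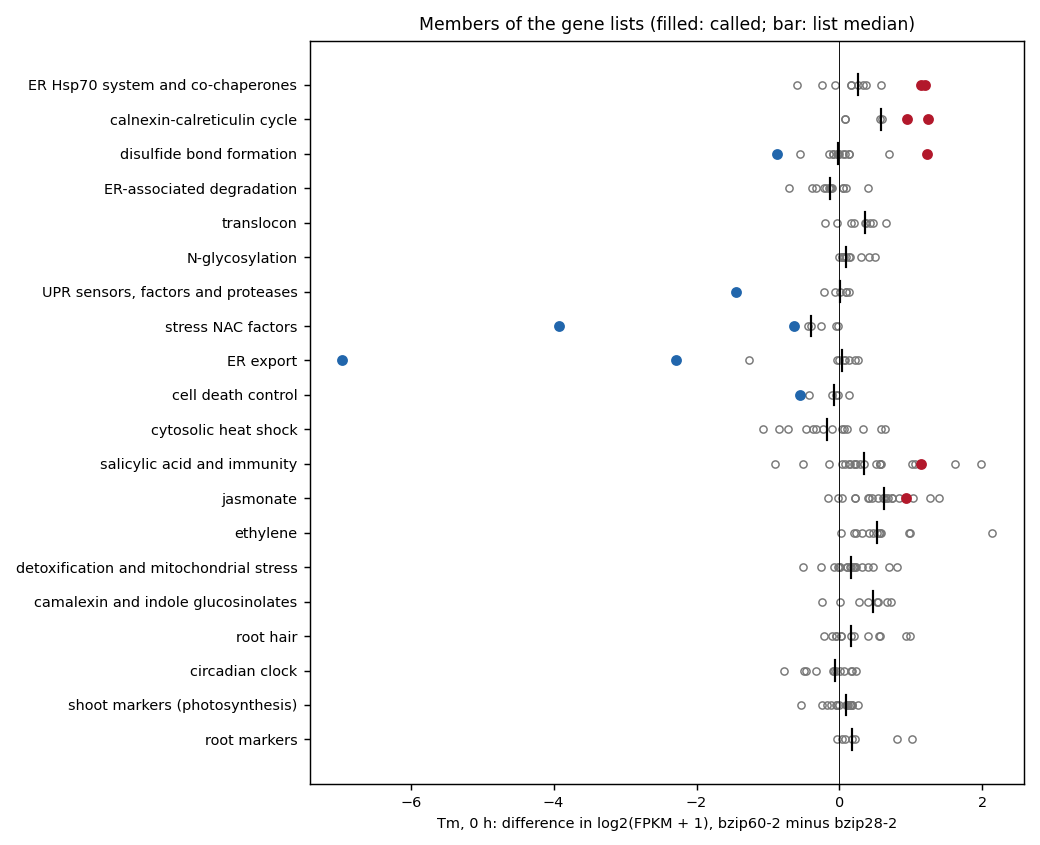
Difference between bzip60-2 and bzip28-2 under Tm at 0 h, in log2(FPKM + 1), for every tested member of the 20 lists (one list a row). Filled points are called (red higher in bzip60-2, blue lower), open points are not, and the bar is the list median. SEC31A at -6.95 and NAC103 at -3.93 lie farthest left, and the 5 red points of the top 3 rows are the ER chaperone and folding genes.

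Under DMSO, the same comparison of 6 libraries that share none with the Tm comparison called 15 genes (0.0686% of those tested), 9 higher (0.0412%) and 6 lower (0.0274%) in bzip60-2, with 4105 at an unadjusted p under 0.05. Of the 117 genes called under Tm, 6 were also called under DMSO, all in the same direction. The 78 genes lower under Tm had a median difference of -1.15 under Tm and of 0.01 under DMSO, while the 39 higher genes had medians of 1.101 and 0.68. The median of the lower genes was thus near 0 without Tm, and that of the higher genes was not. The 6 genes called in both were HEI10, AT2G25690 and AT5G11410 on the higher side and AT2G38630, AT2G38640 and UBC11 on the lower side.

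Several of these genes were far lower in 1 mutant with and without Tm. HEI10 (AT1G53490), a RING-type protein gene with a role in meiotic crossing over, had 20.6, 20.8 and 20.3 FPKM in bzip60-2 under Tm, against 1.24, 1.35 and 0.999 FPKM in bzip28-2. Its difference was 3.30 ± 0.09 under Tm and 3.30 ± 0.07 under DMSO (SE), and Col-0 with 17.5 ± 1.01 FPKM under Tm was like bzip60-2. MRD1 (AT1G53480), whose span overlaps that of HEI10 on the opposite strand, had 6.29, 5.14 and 7.22 FPKM in bzip60-2, against 0, 0.0569 and 0 FPKM in bzip28-2. Libraries were stranded, but whether the deposited FPKM were made with a strand setting is not given in the sources used here, so the levels of this overlapping pair are uncertain. The spans of P58IPK, ERDJ3A, JAZ10, LHT7, AT2G39518, ETC1 and AT2G38630 also overlap other annotated genes, with the same limit. AT2G25690, a DUF581 family gene on chromosome 2, had 6.94, 6.15 and 6.33 FPKM in bzip60-2, against 0, 0 and 0.0293 FPKM in bzip28-2.

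The reverse held for the neighbours AT2G38630 and AT2G38640 on chromosome 2. AT2G38630, a WD40 repeat protein gene, was listed at 0 FPKM in all 3 bzip60-2 libraries under Tm, against 10.7, 6.85 and 9.79 FPKM in bzip28-2. AT2G38640 had 0, 0.147 and 0 FPKM in bzip60-2, against 5.63, 4.18 and 5.46 FPKM in bzip28-2. Col-0 under Tm had 7.81 ± 0.767 FPKM of AT2G38630 and 5.48 ± 0.239 FPKM of AT2G38640 (SD, n = 3), close to bzip28-2.

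The neighbours UBC11 and UBC12, which encode ubiquitin-conjugating enzymes, moved in opposite directions. UBC12 averaged 8.50 ± 0.928 FPKM in bzip60-2 and 1.48 ± 0.819 FPKM in bzip28-2, and UBC11 averaged 26.9 ± 3.21 FPKM in bzip60-2 and 50.6 ± 2.15 FPKM in bzip28-2 (SD, n = 3 each). Neither was called with scaled FPKM (limma adjusted p = 0.061 for UBC12 and 0.071 for UBC11). As related neighbours they may share reads, and the levels of each are uncertain. Near the mutated genes, 1 of 88 tested genes within 1 Mb of bZIP60 was called (1.14%, against 0.624% elsewhere on chromosome 1). This gene, AT1G42980, ends next to bZIP60 and was listed at 0 FPKM in all bzip60-2 libraries under Tm, against 1.15, 1.27 and 1.42 FPKM in bzip28-2. Within 1 Mb of bZIP28, 5 of 522 genes were called (0.958%, against 0.507% elsewhere on chromosome 3), among them UBC11 and UBC12, and none lay within 0.5 Mb.

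**Figure D3:**
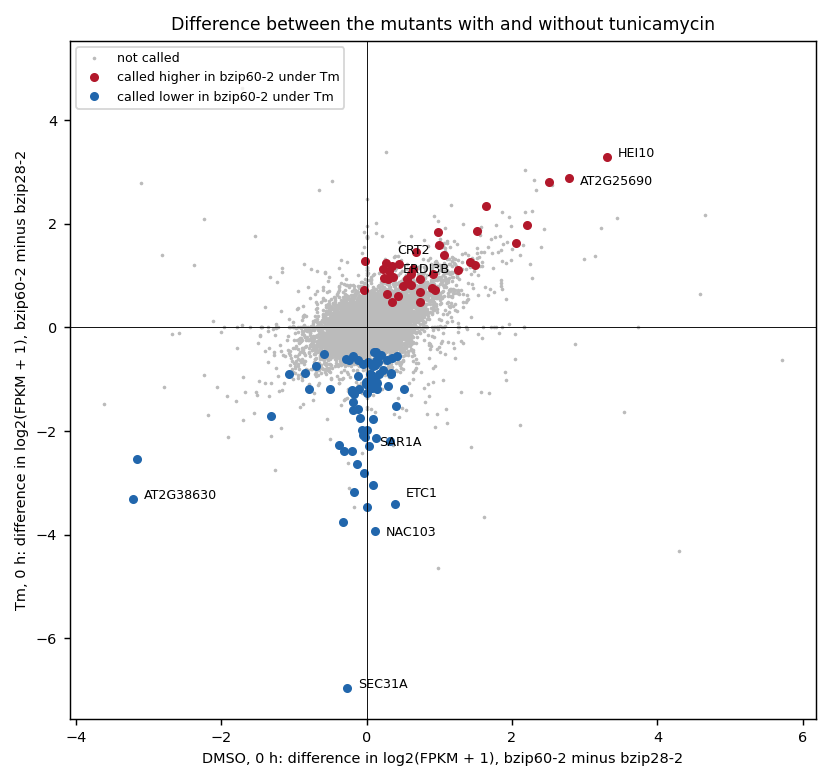
Difference between bzip60-2 and bzip28-2 in log2(FPKM + 1) under Tm (y axis) against that under DMSO (x axis) at 0 h, for the 21864 genes tested. Genes called under Tm are red (39, higher in bzip60-2) or blue (78, lower). Most blue points, down to SEC31A, lie near 0 on the DMSO axis, whereas HEI10, AT2G25690 and AT2G38630 differ by about as much under both conditions.

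By the rule for the largest differences, the other genes highest in bzip60-2 were RNS1, NAC019, ELI3-2, AT5G11410, LHT7 and AT2G39518. RNS1, which encodes a secreted ribonuclease, averaged 20.3 ± 4.34 FPKM in bzip60-2 and 3.16 ± 0.411 FPKM in bzip28-2 (SD, n = 3 each; limma adjusted p = 0.014). NAC019, a stress-related NAC factor gene, had 5.87, 5.24 and 4.10 FPKM in bzip60-2, against 0.406, 0.833 and 0.772 FPKM in bzip28-2 (limma adjusted p = 0.02). In NAC019 and in AT5G11410, a protein kinase gene with 7.38 ± 1.07 FPKM in bzip60-2 and 1.70 ± 0.438 FPKM in bzip28-2 (SD, n = 3 each), Col-0 was close to bzip28-2. The means of ELI3-2 were 6.01 FPKM in bzip60-2 and 0.934 FPKM in bzip28-2, those of LHT7 were 5.40 FPKM in bzip60-2 and 1.36 FPKM in bzip28-2, and those of AT2G39518 were 45.2 FPKM in bzip60-2 and 16.5 FPKM in bzip28-2. Scaled by the median ratio, ELI3-2 (limma adjusted p = 0.051) and AT2G39518 (0.058) were not called. Under DMSO, every gene of this group had a positive difference too, and AT5G11410 alone was called there. The DMSO differences were 1.65 for RNS1, 1.52 for NAC019, 0.98 for ELI3-2, 2.05 for AT5G11410, 0.68 for LHT7 and 1.06 for AT2G39518. None of this group was called in the comparison of the Tm responses given below.

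On the lower side, the same rule gave ETC1, AT4G21730, AT3G12840, AT5G55270, AT2G29260, AT2G29270 and AT4G05370 beside those above. ETC1 (AT1G01380), a MYB-type repressor of trichome and promoter of root hair cell fate, had 2.49, 3.01 and 3.80 FPKM in bzip60-2 under Tm, against 38.2, 44.1 and 45.2 FPKM in bzip28-2 (difference -3.42 ± 0.14, SE; limma adjusted p = 0.0022). In bzip60-2 under DMSO it had 3.73 ± 0.850 FPKM, and Col-0 under Tm had 30.1 ± 1.06 FPKM (SD, n = 3). AT4G21730, annotated as a transcribed pseudogene, had 45.1, 86.3 and 53.9 FPKM in bzip60-2, against 901, 811 and 736 FPKM in bzip28-2 (limma adjusted p = 0.01). Reads of such a copy may come from its parent gene. AT5G55270, of unknown function, had 0.265, 0.229 and 0.310 FPKM in bzip60-2, against 9.74, 10.9 and 10.7 FPKM in bzip28-2 (limma adjusted p = 0.00031). AT2G29260 and the pseudogene AT2G29270 overlap on the same strand, and averaged 7.01 and 1.45 FPKM in bzip60-2 against 55.5 and 18.9 FPKM in bzip28-2. AT3G12840, an F-box-like gene, averaged 0.551 ± 0.187 FPKM in bzip60-2 and 16.6 ± 5.09 FPKM in bzip28-2. AT4G05370 averaged 0.169 ± 0.192 FPKM in bzip60-2 and 6.36 ± 1.76 FPKM in bzip28-2.

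Col-0 under Tm gives each call a place. Of the 78 genes lower in bzip60-2, the Col-0 mean lay between the mutant means in 71, above both in 6 and below both in 1. Of the 39 genes higher in bzip60-2, it lay between them in 22, below both in 12 and above both in 5. On the log2 scale Col-0 was nearer to bzip28-2 in 45 of the lower and 27 of the higher genes. The means of SEC31A, NAC103 and AT3G15980 were higher in bzip28-2 than in Col-0, and those of ERDJ3B, P58IPK and PDIL1-3 in bzip60-2 were within 1 SD of Col-0. The mutants were not tested against Col-0 here.

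The response to Tm itself was compared between the mutants with the 12 libraries of both treatments, as the Tm-to-DMSO difference in bzip60-2 minus that in bzip28-2. Here 88 genes were called (0.402% of those tested), 83 with a smaller (0.38%) and 5 with a larger (0.0229%) value in bzip60-2, with 2777 at an unadjusted p under 0.05. This fit did not pair Tm with DMSO libraries, and 19 genes were called where libraries of the same replicate number were paired. The smaller responses were led by SEC31A (-6.68 ± 0.20, SE), NAC103 (-4.04 ± 0.16), ETC1 (-3.81 ± 0.21), AT3G12840 (-3.48 ± 0.31) and AT4G21730 (-3.43 ± 0.49), with limma adjusted p between 4.7e-07 and 0.015. The 5 larger responses were those of LTI65 (1.31 ± 0.12), CRT2 (0.97 ± 0.17), P58IPK (0.91 ± 0.13), ERDJ3B (0.84 ± 0.12) and bZIP28 (0.71 ± 0.12). LTI65, a gene of drought and cold response, had under 5 FPKM in each of these libraries and was singled out because only 5 genes went this way. CRT1 had 0.71 ± 0.12, just outside the threshold (limma adjusted p = 0.0503), and PDIL1-3 had 0.78 ± 0.22 (limma adjusted p = 0.25). This comparison leans on the DMSO libraries, in which the shoot markers summed to between 31800 and 36528 FPKM in bzip60-2 and between 42966 and 51852 FPKM in bzip28-2. Their part in these differences was not tested.

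The binding data of the series give a readout that shares no library with the RNA. ChIP-seq of GFP-tagged bZIP28 and bZIP60 after Tm gave 130 peaks for bZIP28 and 250 for bZIP60 at 0 h, which the authors annotated to genes after removing most peaks that were also found with DMSO. Of the 39 genes higher in bzip60-2, 7 had a bZIP28 peak (17.95%), as did 2 of the 78 lower genes (2.56%) and 82 of all 21864 genes tested (0.38%). A bZIP60 peak was annotated to 6 of the higher genes (15.38%), 23 of the lower genes (29.49%) and 197 of all genes tested (0.9%). The 7 higher genes with a bZIP28 peak were CRT1, CRT2, ERDJ3B, P58IPK, PDIL1-3, UTR3 and the noncoding RNA gene AT4G36648, and of these P58IPK alone had no bZIP60 peak. By peak score, CRT1, CRT2, ERDJ3B, UTR3, AT4G36648, P58IPK and PDIL1-3 ranked 2, 4, 5, 8, 12, 47 and 53 among the 130 bZIP28 peaks.

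The 23 lower genes with a bZIP60 peak included SEC31A, NAC103, SAR1A, NAC089, AT3G15980, AT1G62020, AT1G29060, NF-YC11 and AT4G21730, for none of which a bZIP28 peak was listed. The 2 lower genes with peaks of both factors were PDIL2-3 and bZIP60 itself. bZIP60 is the gene mutated in bzip60-2 and is counted in the shares above. Its bZIP60 peak (chr1:16135681-16139117, 3437 bases, TAIR10) spans the whole gene. The ChIP line carried a bZIP60 transgene with the promoter of that gene, and its part in this peak was not tested. At SEC31A the bZIP60 peak (chr1:6488722-6489771, 1050 bases, TAIR10) had its centre 13.5 bases after the annotated start and a score of 5.49, which ranked 20 of 250. At NAC103 the peak (chr5:25636253-25636674, TAIR10) had its centre at -674.5 bases (before the start) and a score of 4.46. ETC1 had no peak of either factor at 0 h. A peak not listed says only that none passed the authors' threshold.

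ERSE-I in an exact form, on either strand, was found in the 1000 bases before the start of 3 of 38 higher genes (7.89%), 6 of 77 lower genes (7.79%) and 337 of 21627 tested genes with a sequence (1.56%). The shares of the higher and the lower genes were thus about equal, although both were above that of all genes. The 3 higher genes were P58IPK, with 2 copies 40 and 100 bases before the start, CRT1, with 1 copy 49 bases before it, and UTR3, with 1 copy 29 bases before it. The 6 lower genes were AT3G12840, AT2G25460, NdhO, AT5G11560, FRUCT5 and AT5G04760. In the stretches printed above, the bases between the fixed parts differ from gene to gene. SEC31A, NAC103, SAR1A, ERDJ3B and CRT2 had no exact ERSE-I in this window, which says only that these letters are not there. The window ended at the annotated start, so bases after it were not searched. Peak centres lay after the start at ERDJ3B (90.5 bases for bZIP28, 30.5 for bZIP60) and CRT2 (235 and 165.5). The bZIP60 centres of SAR1A (306) and SEC31A (13.5) did too, and that of NAC103 lay before it. The study reports ERSE-I in the ERDJ3B promoter and found both factors there by ChIP with quantitative PCR. With up to 1 mismatch in the 9 fixed bases, 9 of 38 higher genes (23.68%) and 24 of 77 lower genes (31.17%) held a match. The share over all tested genes was 13.44%.

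**Figure D4:**
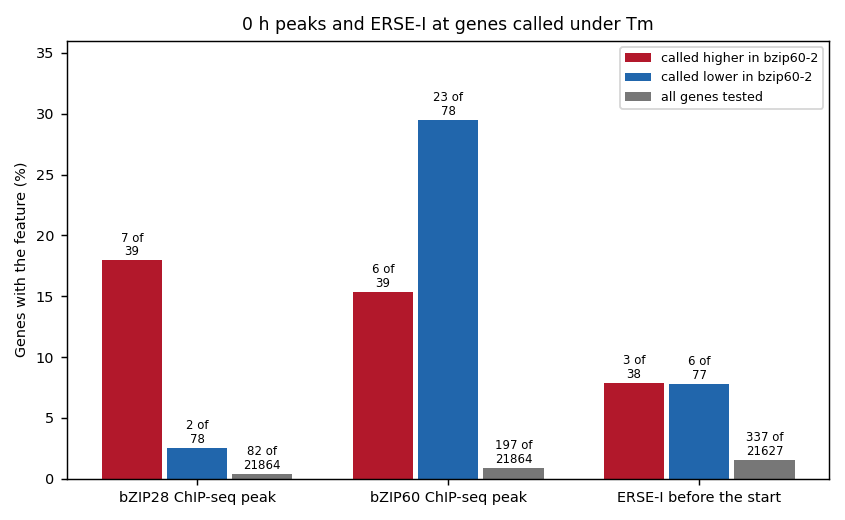
Share of genes (%, from 0) with a 0 h bZIP28 peak, a 0 h bZIP60 peak or an exact ERSE-I in the 1000 bases before the start, for genes called higher in bzip60-2 (red), called lower (blue) and all tested (grey), with the counts above the bars. The bZIP28 bar is taller for the higher genes (7 of 39), the bZIP60 bar is taller for the lower genes (23 of 78), and the ERSE-I bars of the higher and lower genes are nearly level.

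The same comparison 12 h and 24 h after removal of Tm, in other libraries, called 130 genes at 12 h (0.595% of those tested) and 50 at 24 h (0.229%). Of the 39 genes higher in bzip60-2 at 0 h, 13 were called higher at 12 h and 5 at 24 h, beside 0.448% and 0.156% of all genes. Of the 78 lower genes, 18 were called lower at 12 h and 5 at 24 h, beside 0.146% and 0.0732% of all genes. None was called in the opposite direction at either time. These later fits were added after the 0 h values were seen.

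The values of single genes at the later times were as follows, and no test compared the times or the genes with each other. SEC31A was still lower in bzip60-2, with differences of -5.53 ± 0.11 at 12 h and -5.17 ± 0.38 at 24 h on the log2 scale (SE; limma adjusted p = 0.00026 and 0.026). CRT2 had differences of 1.49 ± 0.10 at 12 h and 1.22 ± 0.12 at 24 h (limma adjusted p = 0.011 and 0.046), and ERDJ3B, P58IPK, CRT1 and PDIL1-3 were called higher at 12 h. At 24 h these 4 were not called, but their differences were 1.05 ± 0.23 for ERDJ3B, 0.79 ± 0.25 for P58IPK, 0.74 ± 0.16 for CRT1 and 1.51 ± 0.19 for PDIL1-3, with larger SE than at 0 h. SAR1A had -0.27 ± 0.11 and PDIL2-3 had 0.02 ± 0.12 at 12 h, neither of them called. TIN1 had 0.80 ± 0.16 at 12 h and 1.23 ± 0.38 at 24 h, opposite in sign to 0 h but not called. BIP3, not called at 0 h, was higher in bzip60-2 at 12 h by 1.60 (limma adjusted p = 0.014).

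**Figure D5:**
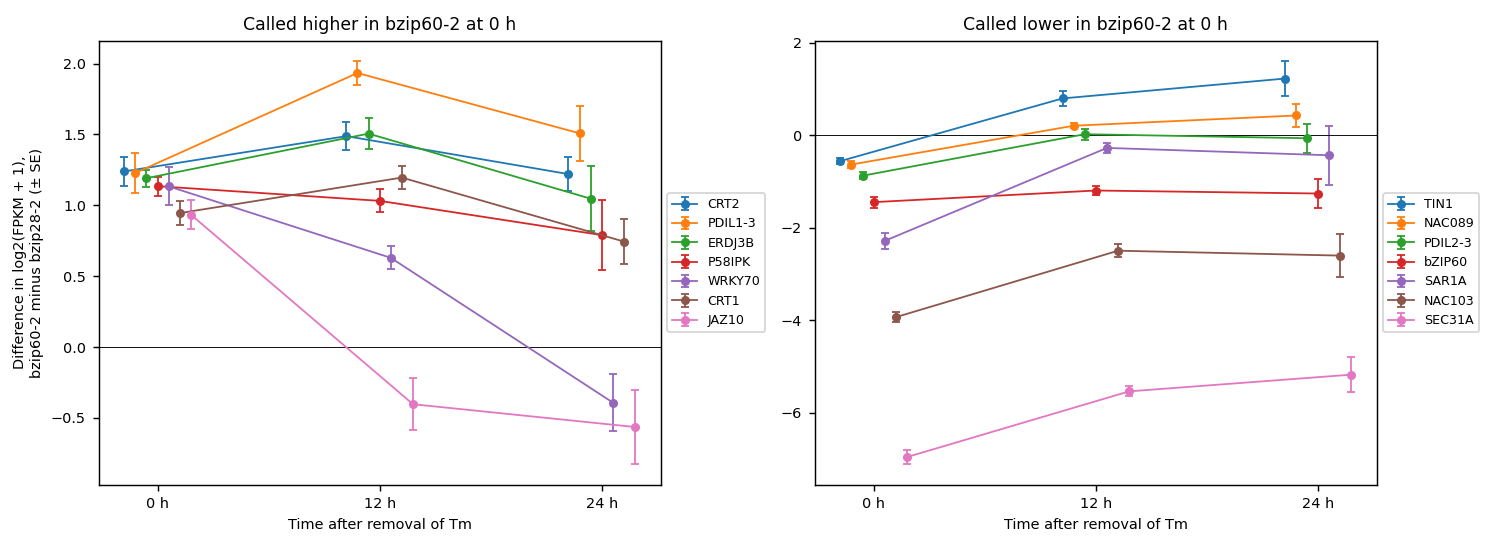
Difference between bzip60-2 and bzip28-2 in log2(FPKM + 1) under Tm (mean and SE, 3 libraries each) at 0, 12 and 24 h for the 14 list members called at 0 h, those higher in bzip60-2 on the left and those lower on the right. SEC31A and NAC103 stay below -2 at all times, SAR1A and PDIL2-3 lie near 0 at 12 h, and the chaperone and calreticulin genes stay above 0.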

How the data were processed

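RNA was sequenced from pools of whole seedlings as stranded single-end libraries. The authors trimmed reads with cutadapt 1.8.1, aligned them to TAIR10 with TopHat2 2.0.14 and Bowtie2 2.2.4, and deposited FPKM values per gene from Cufflinks 1.3.0. For ChIP-seq, the authors aligned reads with Bowtie 1.1.2, called peaks with MACS2 2.1.2 in each sample against pooled inputs, kept those reproducible between replicates, removed most that DMSO samples shared, and deposited lists with a peak score and a gene. The 12 h and 24 h lists were not used here. FPKM hold no counts, so a count test could not be run, the depth of each library is unknown, and the number of libraries limits the precision.

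Differences were fitted with limma 3.58.1 (R 4.3.3, empirical Bayes with a mean trend) on log2(FPKM + 1), for the 6 libraries of each comparison or the 12 of the difference of Tm effects. Genes with FPKM above 1 in at least 1 of 54 libraries entered, p-values were adjusted by Benjamini-Hochberg over all of them, and a gene was called at an adjusted p under 0.05. Separate pools make the replicates, and p-values measure the spread between those pools. The fit was tested on simulated data with planted changes and independent noise, which does not show how reliable the calls in these libraries are. Symbols, positions and promoter sequences came from RefSeq (TAIR10.1), matched by locus identifier for 21627 of the genes tested. The peaks that the authors placed in promoters lay within 1000 bases of the RefSeq start for 89 of 89 bZIP28 peaks and 185 of 187 bZIP60 peaks whose gene was matched.

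Named genes were the mutated genes, 8 UPR and root hair genes followed by the study, called members of the 20 lists, the 10 largest called differences each way with a mean of at least 5 FPKM in the higher mutant and no overlap, and the 5 largest differences of Tm effects each way under the same conditions. Members, lists and tests were chosen with earlier results of these data known. Alternatives changed the pseudocount (0.1), filters, scaling, libraries fitted, trend, block, threshold, peak score and promoter search.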

Additional observations from a re-analysis of the deposited data

Results flagged for a closer look

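For 16 of the named genes, the response to Tm itself differed between the mutants, by the test of the Tm-to-DMSO difference in bzip60-2 minus that in bzip28-2 (limma, adjusted p under 0.05 over all genes tested, 6 libraries of each mutant). The values are on the log2(FPKM + 1) scale. The response was smaller in bzip60-2 for SEC31A (-6.68), NAC103 (-4.04), SAR1A (-2.31), PDIL2-3 (-1.20) and NAC089 (-0.77), genes of vesicle transport, transcription and protein folding. It was smaller too for ETC1 (-3.81), AT3G12840 (-3.48), AT4G21730 (-3.43), AT2G29270 (-3.12), AT5G55270 (-3.004), AT2G29260 (-2.78) and AT4G05370 (-2.50). It was larger in bzip60-2 for the chaperone genes CRT2 (0.97), P58IPK (0.91) and ERDJ3B (0.84) and for bZIP28 (0.71). The bZIP28 value rests on the DMSO libraries, where bZIP28 had 12.5 ± 0.442 FPKM in bzip60-2 and 24.7 ± 1.54 FPKM in the libraries labelled bzip28-2 (SD, n = 3 each).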

How the results depend on the processing

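No gene that was named and called changed sign under any alternative. Of those not called, COW1 (-0.06) had 0.18 without bzip28-2 replicate 2 and 0.004 without bzip60-2 replicate 3, and LRX1 (0.17) had -0.01 without bzip60-2 replicate 2. The median of all genes (-0.01) was 0.006 without bzip60-2 replicate 2, and that of the disulfide list (-0.01) was 0.002 with scaling. The number of genes called under Tm (117; 39 higher, 78 lower) became 76 (23 and 53) with FPKM scaled by their median ratio, 282 (153 and 129) with a mean of at least 1 FPKM required, 281 (151 and 130) with the filter set on the libraries compared (added after seeing the data), 459 (229 and 230) in a fit of the 12 libraries, 919 (565 and 354) in a fit of all 54, and 19 at an adjusted p under 0.01 with a log2 difference over 1. It was 27 to 43 with a library left out. Of the 117, 108 were also called in the 54-library fit and 104 in the 12-library fit. Under DMSO (15), the counts were 88 with either filter, 1125 in the 54-library fit, 5 at the stricter threshold, and 6 to 30 with a library left out. For the difference of Tm effects (88) they were 150, 31 at the stricter threshold, and 57 to 84 with a library left out. With the replicate number as a block, 6 genes were called under Tm, 0 under DMSO and 56 for the difference of Tm effects, or 19 with a paired fold change per number. The study gives Tm/DMSO fold changes for each biological replicate and compares them between genotypes. In its recovery assay, a plate split between Tm-treated and DMSO-treated seedlings made a replicate. It does not say whether same-numbered 0 h libraries shared more than a number. The correlations of their deviations between the mutants were -0.01, 0.23 and -0.06 under Tm. Between Tm and DMSO they were 0.01, -0.27 and -0.15 in bzip60-2 and -0.15, -0.03 and 0.07 in bzip28-2. With 3 libraries in a group, these values cannot decide whether the libraries were paired. Scaling left 1 call each in the disulfide and stress NAC lists and 0 in those of cell death, salicylic acid and immunity, and jasmonate. With only peaks at or above the median score, 0 lower genes had a bZIP28 peak and 0 had both. With 1 mismatch allowed, ERSE-I was found at 9 higher and 24 lower genes. Within 0.5 Mb of bZIP28, 0 genes were called. The causes were not tested.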
